A study of Mus musculus with 7 samples.

Results

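The macrophage, dendritic cell and Langerhans cell genes measured in whole skin papillomas of mice were taken as a set of 32 genes, chosen by symbol. They comprised 22 macrophage genes and 10 antigen presentation genes, out of the 14820 genes of the table. Papillomas labelled p16 came from K5-rtTA/tet-p16 mice, in which the Krt5 promoter drives the rtTA activator in keratinocytes of the basal epidermis and doxycycline then switches on a human p16 transgene. Control papillomas came from sibling tet-p16 mice, which carry the p16 transgene without the activator. All mice received 50 nmol of the mutagen DMBA on the skin once at 3 weeks of age, doxycycline from 1 week later, and the tumor promoter TPA 2 times a week. They were then followed for 23 more weeks, and the lesions were dissected whole 10 days after the last TPA, at 27 weeks of age. The tet-p16 line was of mixed C57Bl6 and 129sv background and the K5-rtTA line was FVB. There were 3 p16 papillomas (numbers 1, 2 and 3) and 4 control papillomas (numbers 1, 2, 3 and 5), each sequenced as 1 library. The submitters' label of this comparison appears to mark number 4 of each group as left out, and the sources used here give no reason. The labels do not say whether each papilloma came from its own mouse, so the p-values below measure the spread between lesions.

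Macrophages and dendritic cells are myeloid cells that live in the dermis, and Langerhans cells are their relatives within the epidermis, where they extend processes between keratinocytes. Macrophages engulf dead cells and microbes through scavenger, complement and Fc receptors, and depend on the receptor Csf1r for survival. Dendritic and Langerhans cells take up antigen and present peptides of it on MHC class II molecules, whose genes are switched on together by the transactivator Ciita. Class I molecules, in contrast, are carried by nearly all cells, keratinocytes included. In a whole papilloma most RNA comes from keratinocytes, and fewer cells of a type and less RNA per cell cannot be told apart.

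RNA was read at the 3′ end of transcripts by CEL-Seq2, and values are normalized read counts, that is, reads divided by 1 size factor per library. The libraries held 1158035 to 4365391 reads, and p16 papilloma 2 was the shallowest. In it 1 read was worth 2.89 normalized counts, against 0.735 in the deepest, p16 papilloma 3, so a listed 0 in p16 papilloma 2 still allows a level of up to 8.68 (3 reads, counting error only). That papilloma also held the highest summed level of 12 skeletal muscle markers, 11332, against 288 and 2526 in the other p16 papillomas and 209 to 647 in control papillomas. Control papilloma 3 stood apart through lactoferrin, Ltf, at 8087 normalized counts, against 2.69 to 5.79 in p16 papillomas and 4.27 to 199 in the other control papillomas. The transgene is human, so the mouse gene Cdkn2a does not check the labels. Mouse Cdkn2a read 26.9, 8.68 and 8.82 in p16 papillomas, against 52.1, 23.0, 45.7 and 16.9 in control papillomas, with a log2 change of -1.21 ± 0.49 (SE, adjusted p = 0.175, limma).

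None of the macrophage, dendritic cell and Langerhans cell genes passed the test of a difference between p16 and control papillomas. A mean of at least 10 normalized counts in either group was required for testing, and 25 of the 33 rows of the members passed that filter (Itgam has 2 rows). Of these, 0 of 19 macrophage rows and 0 of 6 antigen presentation rows passed an adjusted p of 0.05 in limma, the linear model fitted to log2(value + 1). Over all 10466 genes tested, 588 passed, which is 5.62%, with 278 higher in p16 papillomas (2.66%) and 310 lower (2.96%). At an unadjusted p under 0.05, 3 members passed, Apoe in the higher direction and Cd14 and Itgam in the lower, against a background of 21.2% of all genes. No tested member had p16 and control values that did not overlap, whereas 19.6% of all genes did. The median log2 change (p16 minus control) was -0.15 for the macrophage rows and 0.38 for the antigen presentation rows, beside -0.02 over all genes. The edgeR quasi-likelihood test on the recovered reads called 0 members (5.19% of all genes), limma-voom called 0 (4.17%), and DESeq2 called 1, Apoe (7.53%).

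**Figure D1:**
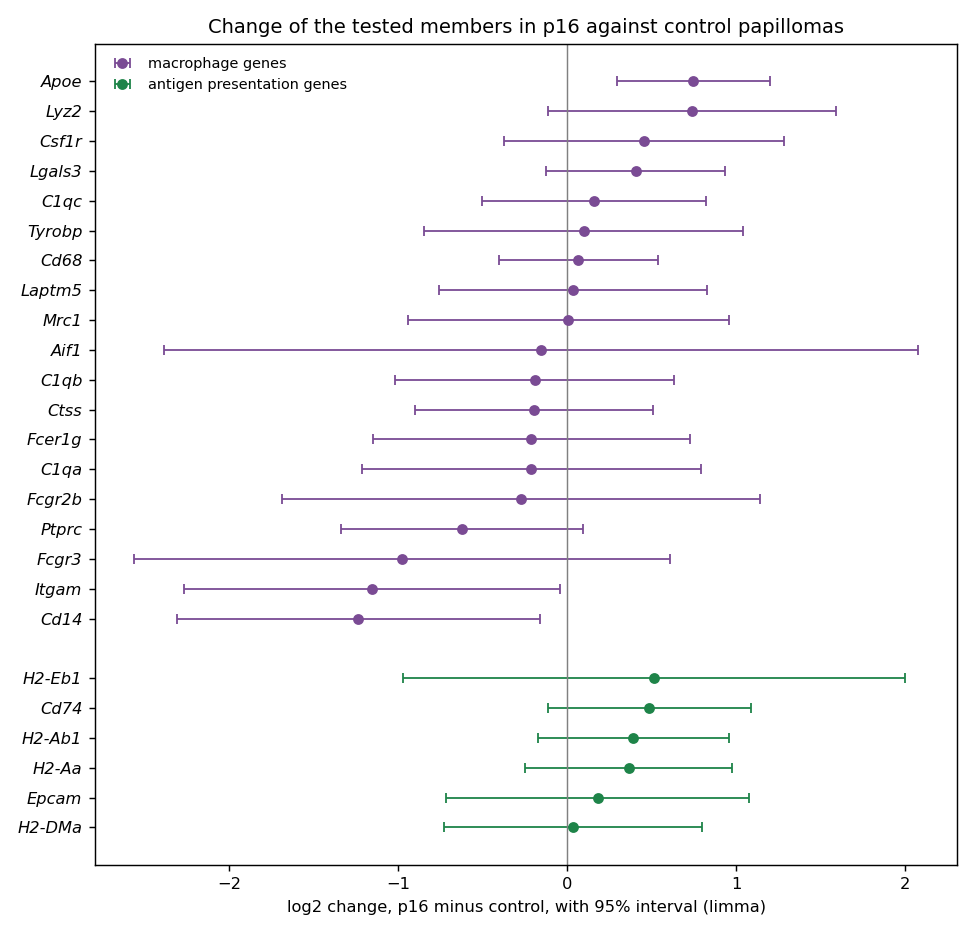
Log2 change, p16 minus control, of the 25 tested members (points) with 95% intervals from limma (lines), macrophage genes in purple above and antigen presentation genes in green below, each sorted by size. Only the intervals of Apoe (0.29 to 1.20), Itgam (-2.27 to -0.04) and Cd14 (-2.31 to -0.16) leave out 0.

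The defining macrophage markers Cd68, Csf1r, Mrc1 and the C1q chains had reads in every library, and each overlapped between the groups. Cd68, a glycoprotein of macrophage lysosomes, read 45.7, 46.3 and 43.4 in p16 papillomas, against 44.4, 45.9, 35.6 and 47.4 in control papillomas. It varied little within either group, with means of 45.1 ± 1.56 in p16 papillomas and 43.3 ± 5.29 in control papillomas and a log2 change of 0.07 ± 0.21 (SE, adjusted p = 0.899, limma), and its 95% interval spans a ratio of p16 to control of 0.76 to 1.45. Csf1r, the receptor for the growth factors Csf1 and Il34, read 45.7, 20.3 and 30.9 in p16 papillomas, against 27.3, 32.6, 21.0 and 12.6 in control papillomas. p16 papilloma 1 was the highest of the 7 and control papilloma 5 the lowest, and the change was 0.45 ± 0.38 (SE, adjusted p = 0.539, limma). Mrc1, the mannose receptor of tissue macrophages, read 24.2, 26.1 and 19.1 in p16 papillomas, against 23.1, 47.1, 10.0 and 24.2 in control papillomas. Control papillomas held both its highest and its lowest value, and the change was 0.01 ± 0.43 (SE, adjusted p = 0.997, limma). Csf1r maps to chromosome 18 (61100598 to 61132149, GRCm38) and Cd68 to chromosome 11 (69664213 to 69666153).

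Of the defining macrophage markers, 2 were too low to test. Adgre1, a surface receptor widely used to stain mouse macrophages, had 6 reads over the p16 papillomas and 12 over the control papillomas, or 1.35, 2.89 and 2.94 in p16 papillomas, against 3.42, 1.21, 0 and 7.38 in control papillomas. Cd163, the scavenger receptor for hemoglobin bound to haptoglobin, had 16 reads over the p16 papillomas and 22 over the control papillomas, or 10.8, 5.79 and 4.41 in p16 papillomas, against 3.42, 13.3, 4.57 and 2.11 in control papillomas. The 8 macrophage markers together (Cd68, Csf1r, Adgre1, C1qa, C1qb, C1qc, Mrc1 and Cd163) summed to 257, 237 and 214 in p16 papillomas, against 309, 266, 159 and 189.7 in control papillomas. The p16 sums lay within the control range, and the lowest and highest sums both belonged to control papillomas.

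The 3 chains of complement C1q, which macrophages make and which bind to antibody and to dying cells, lie side by side on chromosome 4 (136880129 to 136898803, GRCm38). C1qc was the highest of the 3 by reads, at 102, 81.0 and 73.5 in p16 papillomas, against 128, 90.6, 49.3 and 58.0 in control papillomas. C1qb read 18.8, 43.4 and 33.1 in p16 papillomas, against 65.8, 26.6, 26.5 and 30.6 in control papillomas, and C1qa read 8.07, 11.6 and 6.62 in p16 papillomas, against 13.7, 8.46, 11.9 and 7.38 in control papillomas. Control papilloma 1 had the highest value for each of the 3 chains, and no chain separated the groups. The log2 changes were -0.21 for C1qa, -0.19 for C1qb and 0.16 for C1qc, with adjusted p of 0.836, 0.816 and 0.813 in limma. Summed over the chains, C1q reached 129, 136 and 113 in p16 papillomas, against 208, 126, 87.7 and 95.9 in control papillomas.

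**Figure D2:**
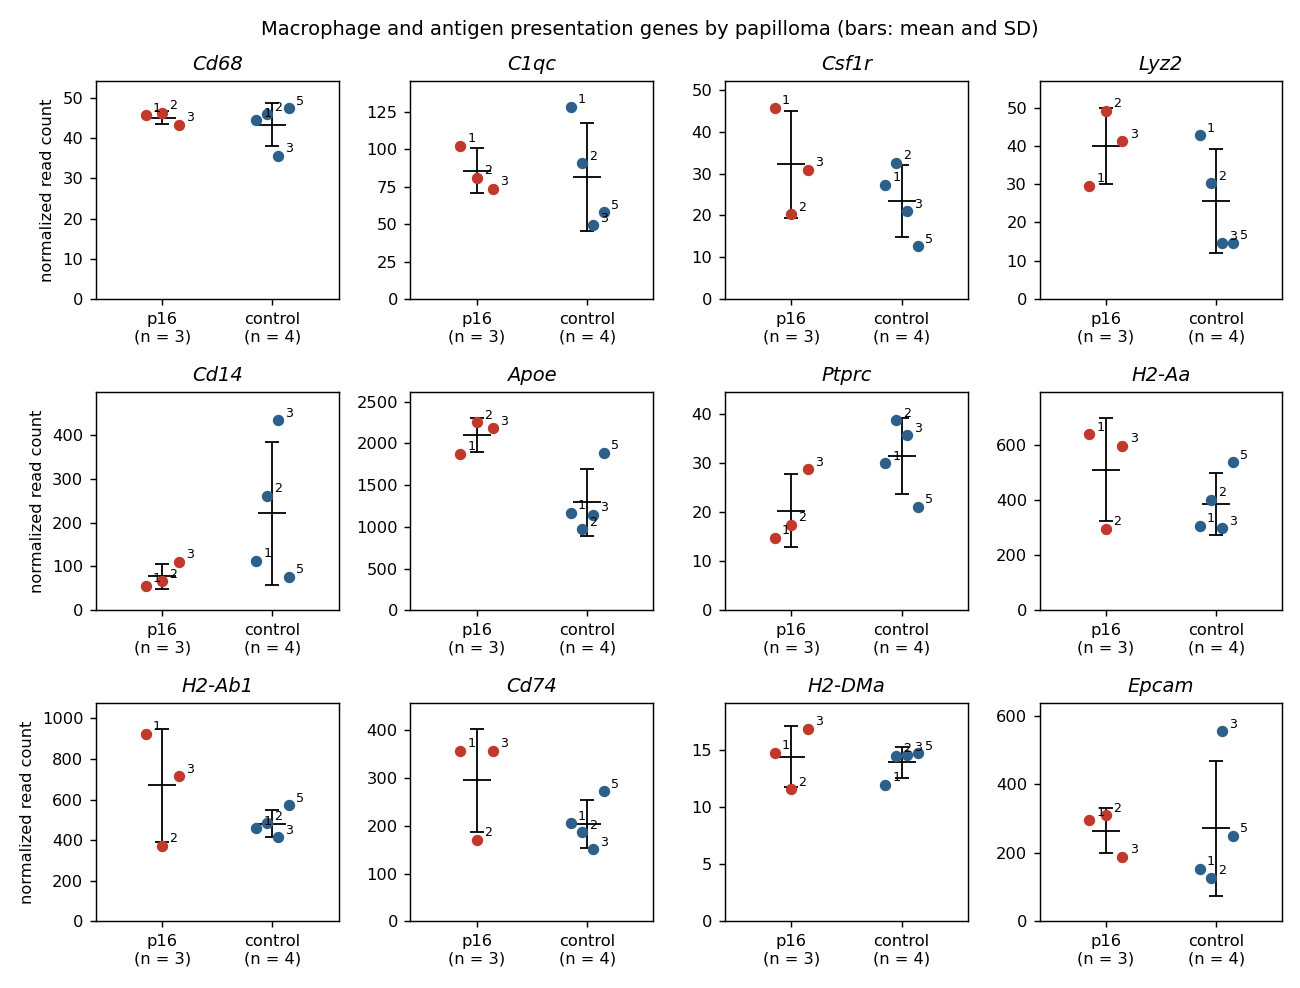
Normalized read count of 12 members in each papilloma, p16 (red, n = 3) left and control (blue, n = 4) right, numbered by papilloma, with the mean and SD as bars and each axis starting at 0. Cd68 lay between 35.6 and 47.4 in all 7 papillomas, while Cd14 in control papillomas ran from 75.9 to 434.

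None of the genes of myeloid receptor signaling passed the test. Tyrobp and Fcer1g encode adaptor chains that carry the signal of many myeloid receptors. Tyrobp read 26.9, 14.5 and 44.8 in p16 papillomas, against 24.8, 24.2, 42.0 and 13.7 in control papillomas, a log2 change of 0.10 ± 0.43 (SE, adjusted p = 0.927, limma). Fcer1g read 16.1, 8.68 and 22.8 in p16 papillomas, against 21.4, 21.7, 20.1 and 9.48 in control papillomas, a log2 change of -0.21 ± 0.43 (SE, adjusted p = 0.822, limma). The groups overlapped for both adaptors, and p16 papilloma 2 and control papilloma 5 were the lowest of their groups for each. The ratio of Tyrobp to Fcer1g reads stayed between 1.11 and 2.09 over the 7 papillomas, a ratio of 3′ reads that does not compare molecules per length.

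The IgG receptors Fcgr3, an activating receptor, and Fcgr2b, the inhibitory one, are neighbors on chromosome 1. Fcgr3 read 2.69, 2.89 and 6.62 in p16 papillomas, against 7.69, 15.7, 16.4 and 2.11 in control papillomas, a log2 change of -0.98 ± 0.72 (SE, adjusted p = 0.478, limma) on 12 reads over the p16 papillomas and 42 over the control papillomas. Fcgr2b read 18.8, 5.79 and 34.5 in p16 papillomas, against 21.4, 45.9, 6.39 and 21.1 in control papillomas, a log2 change of -0.27 ± 0.65 (SE, adjusted p = 0.855, limma). Both ranged widely within each group, so that the lowest and highest values of a group differed several-fold. Aif1, a calcium-binding protein of macrophages also called Iba1, was the least certain of the members, at 26.9, 0 and 6.62 in p16 papillomas, against 8.54, 12.1, 2.74 and 3.16 in control papillomas. Its change of -0.15 had an SE of 1.02 (adjusted p = 0.954, limma), and it was positive in edgeR, at 0.87.

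Of the members that act in lysosomes, Lyz2, Ctss and Laptm5 overlapped between the groups. Lyz2, the lysozyme of macrophages and neutrophils, read 29.6, 49.2 and 41.2 in p16 papillomas, against 42.7, 30.2, 14.6 and 14.8 in control papillomas. It was higher on average in p16 papillomas, with means of 40.0 ± 9.86 in p16 papillomas and 25.6 ± 13.6 in control papillomas, but the change of 0.74 ± 0.39 (SE) did not pass (adjusted p = 0.301, limma). Control papilloma 1 lay above both p16 papillomas 1 and 3. Ctss, the cathepsin that trims the invariant chain from class II molecules, read 130.5, 55.0 and 137 in p16 papillomas, against 153, 135, 102 and 81.1 in control papillomas. Its values overlapped almost fully, with p16 papilloma 2 the lowest of the 7, and the change was -0.20 ± 0.32 (SE, adjusted p = 0.773, limma). Without p16 papilloma 2 that change was positive, at 0.22. Laptm5, a lysosomal membrane protein of blood-derived cells, read 41.7, 23.2 and 28.7 in p16 papillomas, against 15.4, 43.5, 35.6 and 31.6 in control papillomas. The groups shared nearly the same mean (31.2 ± 9.52 in p16 papillomas and 31.5 ± 11.8 in control papillomas), and the 95% interval of the ratio was 0.59 to 1.78.

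Ptprc, which encodes CD45 and marks all white blood cells, read 14.8, 17.4 and 28.7 in p16 papillomas, against 29.9, 38.7, 35.6 and 21.1 in control papillomas. Of the p16 papillomas, 1 and 2 lay below all control papillomas and 3 lay within their range. The log2 change was -0.62 ± 0.33 (SE, adjusted p = 0.300, limma). Cd14, a co-receptor for bacterial lipopolysaccharide on monocytes and macrophages, had the most negative change of the members. It read 56.5, 66.6 and 110.3 in p16 papillomas, against 114, 262, 434 and 75.9 in control papillomas. Control papillomas 2 and 3 stood above the rest, whereas control papillomas 1 and 5 lay close to or within the p16 range. The log2 change was -1.24 ± 0.49 (SE), which did not pass after adjustment (adjusted p = 0.172, limma). Without control papilloma 3 the change was -0.81 (adjusted p = 0.303, limma).

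Itgam, the CD11b chain of the integrin of macrophages and neutrophils, was listed under 2 gene IDs on the same stretch of chromosome 7. The main ID (ENSMUSG00000030786, 128062640 to 128118491) read 20.2, 5.79 and 7.35 in p16 papillomas, against 12.8, 21.7, 46.6 and 20.0 in control papillomas. p16 papillomas 2 and 3 were below all control papillomas, and p16 papilloma 1 was within their range. The log2 change was -1.16 ± 0.51 (SE, adjusted p = 0.219, limma). Without control papilloma 3 it was -0.82, and without p16 papilloma 2 it was -0.83. The other ID held 2 reads in p16 papillomas and 3 in control papillomas and was not tested. Since the 2 IDs overlap, their reads could have been split by the counting, and the level of Itgam is uncertain to that extent.

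Apoe and Lgals3 were the most abundant macrophage members, and epidermal cells are also known to make both. Apoe, the lipid carrier that macrophages secrete, read 1875, 2255 and 2182 in p16 papillomas, against 1167, 971, 1146 and 1885 in control papillomas. p16 papillomas 2 and 3 were above all control papillomas, and p16 papilloma 1 lay just below control papilloma 5. The means were 2104 ± 202 in p16 papillomas and 1292 ± 405 in control papillomas (SD, n = 3 and n = 4), and the log2 change of 0.75 ± 0.21 (SE) missed the threshold narrowly (adjusted p = 0.0594, limma). Apoe passed in DESeq2 (adjusted p = 0.0197) and, in limma, without control papilloma 5 (log2 change 0.94, adjusted p = 0.0107). Lgals3, the sugar-binding galectin 3, read 1016, 1384 and 1170.1 in p16 papillomas, against 822, 761, 1490.1 and 678 in control papillomas, a log2 change of 0.40 ± 0.24 (SE, adjusted p = 0.368, limma). Control papilloma 3 had the highest Lgals3 of the 7 and the other control papillomas the lowest 3, and without control papilloma 3 the change was 0.65 and just passed (adjusted p = 0.0488, limma).

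Trem2, a receptor of lipid-laden macrophages, was near the limit of detection. It had 0 reads among the 7931091 reads of the p16 papillomas, which allows up to 0.378 CPM (reads scaled to the library total), and 6 reads among the 13353434 reads of the control papillomas, or 0.449 CPM. The normalized counts were 0, 0 and 0 in p16 papillomas, against 0.854, 2.42, 2.74 and 0 in control papillomas. The difference is a matter of a few reads and could not be judged at this depth.

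The class II genes H2-Aa, H2-Ab1 and Cd74 were readily detected and moved together from papilloma to papilloma, but did not separate the groups. H2-Aa and H2-Ab1, the alpha and beta chains of the I-A molecule, lie on chromosome 17, and Cd74, the invariant chain that escorts class II through the cell, on chromosome 18. H2-Ab1 read 923, 373 and 715 in p16 papillomas, against 458, 483, 415 and 571 in control papillomas. H2-Aa read 640.3, 295 and 599 in p16 papillomas, against 308, 402, 299 and 538 in control papillomas, and Cd74 read 356, 171 and 356 in p16 papillomas, against 205, 186, 151 and 272 in control papillomas. For all 3 genes, p16 papillomas 1 and 3 were above every control papilloma, p16 papilloma 2 lay within or below the control range, and control papilloma 5 was the highest control. Over the 7 papillomas, the ratio of H2-Aa to H2-Ab1 reads stayed between 0.67 and 0.94, and the ratio of Cd74 to H2-Ab1 reads between 0.36 and 0.50. The ratio of H2-Eb1 to H2-Ab1 reads was not as steady, at 0.0050 to 0.056.

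The log2 changes were 0.36 ± 0.28 for H2-Aa, 0.39 ± 0.26 for H2-Ab1 and 0.49 ± 0.27 for Cd74 (SE), with adjusted p of 0.499, 0.422 and 0.335 in limma. The 95% intervals of the ratio of p16 to control were 0.84 to 1.97 for H2-Aa, 0.89 to 1.94 for H2-Ab1 and 0.92 to 2.12 for Cd74. Without p16 papilloma 2, the shallow and muscle-rich library, the changes were 0.72, 0.76 and 0.84, with adjusted p of 0.155, 0.0672 and 0.0890 in limma. H2-DMa, which helps load peptides onto class II, read 14.8, 11.6 and 16.9 in p16 papillomas, against 12.0, 14.5, 14.6 and 14.8 in control papillomas, with overlapping groups and a log2 change of 0.03 ± 0.35 (SE, adjusted p = 0.970, limma). H2-Eb1, the beta chain of the I-E molecule, was low and scattered, at 32.3, 11.6 and 10.3 in p16 papillomas, against 25.6, 2.42, 19.2 and 9.48 in control papillomas, and its change of 0.51 ± 0.68 (SE, adjusted p = 0.713, limma) could not be told from none. Ciita, the transactivator, had 15 reads over the p16 papillomas and 11 over the control papillomas, or 8.07, 0 and 6.62 in p16 papillomas, against 1.71, 6.04, 0.913 and 3.16 in control papillomas, and was not tested.

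Class II promoters carry a set of short elements (W, X and Y boxes) on which the Rfx, Creb and Nfy factors assemble to recruit Ciita. The RefSeq start site windows (250 bases before to 50 after the start, GRCm38.p6) covered 23 of the 32 members. They were searched on both strands for CTGATTGG, a Y box that holds an inverted CCAAT, and for TGATGA, a short sequence found in X2 elements, which do not overlap each other. Both were found in 2 members, H2-Aa and H2-Eb1, whose windows are shown because their genes share the class II control elements. H2-Ab1 and Cd74 were among the members without a window and were not searched. In the whole table of 32851 windows, CTGATTGG was in 4.10%, TGATGA in 12.4% and both in 0.438%. Among the 23 members with a window, CTGATTGG was in 2 and TGATGA in 5. The windows are chr17:34287774-34288073 on the minus strand for H2-Aa and chr17:34305617-34305916 on the plus strand for H2-Eb1, given 5′ to 3′ with the 2 elements in capitals.
H2-Aa: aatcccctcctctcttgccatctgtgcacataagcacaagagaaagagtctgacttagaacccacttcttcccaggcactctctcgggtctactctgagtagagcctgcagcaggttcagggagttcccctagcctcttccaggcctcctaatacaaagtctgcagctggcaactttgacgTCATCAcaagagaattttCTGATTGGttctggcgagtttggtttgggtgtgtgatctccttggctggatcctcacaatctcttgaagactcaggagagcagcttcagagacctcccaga
H2-Eb1: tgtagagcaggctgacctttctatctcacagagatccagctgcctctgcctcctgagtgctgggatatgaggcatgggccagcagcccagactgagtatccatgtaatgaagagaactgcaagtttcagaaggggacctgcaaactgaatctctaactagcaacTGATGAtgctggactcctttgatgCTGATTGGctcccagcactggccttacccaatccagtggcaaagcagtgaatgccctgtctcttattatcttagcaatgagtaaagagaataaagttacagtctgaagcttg
In H2-Aa the Y box begins 51 bases before the start and the X2 element, read on the opposite strand as TCATCA, 69 bases before it. In H2-Eb1 they begin 62 and 86 bases before the start. The matches describe the letters only, and binding was not measured.

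Markers of Langerhans and dendritic cells were at the edge of detection. Cd207, the langerin of Langerhans cell granules, had 21 reads over the p16 papillomas and 18 over the control papillomas and values of 14.8, 2.89 and 6.62 in p16 papillomas, against 0, 14.5, 4.57 and 1.05 in control papillomas. Itgax, the CD11c integrin chain of dendritic cells, had 18 reads over the p16 papillomas and 38 over the control papillomas and values of 10.8, 0 and 7.35 in p16 papillomas, against 2.56, 13.3, 11.0 and 12.6 in control papillomas. Cd86, a co-stimulatory ligand for T cells, had 13 reads over the p16 papillomas and 10 over the control papillomas, or 9.42, 0 and 4.41 in p16 papillomas, against 0.854, 4.83, 1.83 and 3.16 in control papillomas. These 3 genes had a mean under 10 in both groups and overlapped between them, and p16 papilloma 2 was listed at 0 for Itgax and Cd86. Epcam, an adhesion molecule of Langerhans cells and of many epithelial cells, was far more abundant, at 297, 309.7 and 189 in p16 papillomas, against 153, 128, 555 and 251 in control papillomas. Control papilloma 3 was the highest and control papillomas 1 and 2 the lowest, and the change was 0.18 ± 0.41 (SE, adjusted p = 0.846, limma). In edgeR (-0.06) and DESeq2 (-0.04) its sign was negative.

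Of 26 further dendritic and Langerhans cell genes, 25 were in the table and 10 were tested. Of these, 0 rose and 1 fell, against 2.96% of all genes that fell. Their median log2 change was -0.98, beside -0.02 over all genes. Of the 10 changes, 9 were negative, against 5458 of all 10466 genes tested. At an unadjusted p under 0.05 in limma, 2 of the 10 passed, against 21.2% of all genes. The list summed to 3703, 3447 and 3250 in p16 papillomas, against 4880, 4581, 4464 and 4113 in control papillomas, and the sum was not tested. Abundant genes weigh most in such a sum. Of the 25 genes, 15 are marked by the authors as expressed in sorted keratinocytes, so the sum is not a measure of dendritic or Langerhans cells. The gene that fell was Fscn1, the actin-bundling fascin of mature dendritic cells and of motile epithelial cells, at 108, 133 and 135 in p16 papillomas, against 265, 463, 296 and 338 in control papillomas. Every p16 papilloma lay below every control papilloma, a log2 change of -1.41 ± 0.20 (SE, adjusted p = 0.00225, limma). Clec9a, a receptor of cross-presenting dendritic cells, had 0 reads in each of the 7 libraries.

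The class I pathway gave a different picture from class II in the same libraries. Of 18 class I pathway genes 17 were tested, 7 rose and 0 fell, against 2.66% of all genes that rose, and their median log2 change was 0.79. B2m, the light chain of all class I molecules, read 2906, 2515 and 3003 in p16 papillomas, against 968, 1218, 1159 and 1375 in control papillomas, a log2 change of 1.26 ± 0.15 (SE, adjusted p = 0.00105, limma). H2-K1, a class I heavy chain, read 3269, 3285 and 2978 in p16 papillomas, against 1138, 1655, 1455 and 1783 in control papillomas, a log2 change of 1.09 ± 0.17 (SE, adjusted p = 0.00331, limma). H2-D1, another heavy chain, read 7082, 6053 and 5863 in p16 papillomas, against 2519, 3578, 3196 and 3572 in control papillomas, a log2 change of 0.99 ± 0.17 (SE, adjusted p = 0.00559, limma). For these 3 genes every p16 papilloma, number 2 included, was above every control papilloma. Psmb8, a subunit of the immunoproteasome that cuts peptides for class I, changed by 1.52 ± 0.35 on the log2 scale (SE, adjusted p = 0.0300, limma). The other genes that rose were Psmb9, Nlrc5 and H2-Q4. The heavy chain genes are near-identical in part, and reads could be shared among them in the counting. H2-K1, H2-D1 and B2m passed in each of the 18 alternatives run, while the count of 7 fell to 3 (these 3 genes) without p16 papilloma 1, 2 or 3 and to 4 without control papilloma 1 or control papilloma 3.

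H2-Ab1 amounted to 0.11 to 0.28 of the H2-K1 reads in p16 papillomas and to 0.28 to 0.40 in control papillomas. The rise of H2-K1 itself lowers this ratio, so it adds no separate result on class II. The difference between the class II and class I changes was not tested as such.

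**Figure D3:**
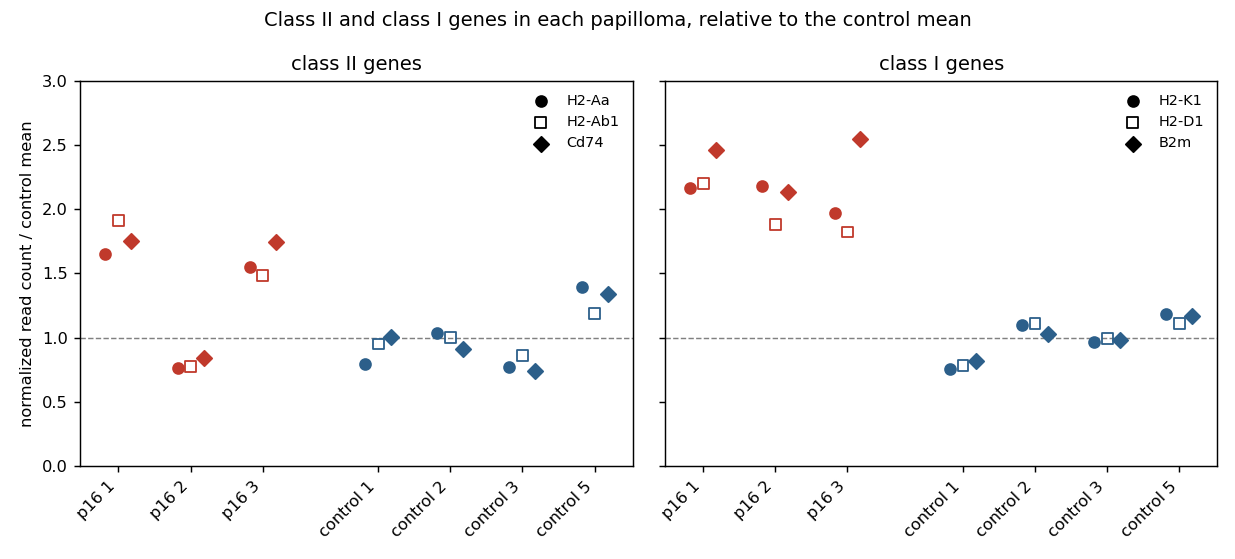
Normalized read count of 3 class II genes (left) and 3 class I genes (right) in each papilloma, divided by the control mean of the gene (dashed line at 1), p16 in red and control in blue. All 3 class I genes were higher in every p16 papilloma than in any control papilloma, whereas for the class II genes p16 papilloma 2 lay among or below the control papillomas.

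Of 25 other genes that serve class II, 19 were in the table and 12 were tested, with a median log2 change of 0.08. Of the 12, 1 rose and 1 fell, against 2.66% of all genes that rose and 2.96% that fell. Ifi30, the lysosomal thiol reductase that unfolds antigens, rose to 225 ± 36.9 normalized counts (SD, n = 3) in p16 papillomas, against 127 ± 16.2 (SD, n = 4) in control papillomas, a log2 change of 0.82 ± 0.18 (SE, adjusted p = 0.0230, limma). Ctsl, cathepsin L, fell to 591 ± 112 normalized counts (SD, n = 3) in p16 papillomas, against 992 ± 201 (SD, n = 4) in control papillomas, a log2 change of -0.74 ± 0.19 (SE, adjusted p = 0.0413, limma). Neither is made by antigen presenting cells alone. The call on Ctsl was lost in edgeR (adjusted p = 0.0505) and, in limma, without control papilloma 1, 2 or 5 or p16 papilloma 2 or 3 (adjusted p 0.0592 to 0.123). That on Ifi30 was lost without control papilloma 2 or 3 or p16 papilloma 2 or 3 (adjusted p 0.0521 to 0.0989, limma).

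Beyond the members, 49 other macrophage genes were looked up. Of these, 47 were in the table and 26 were tested, with a median log2 change of -0.14. Of the 26, 1 rose and 1 fell, against 2.66% of all genes that rose and 2.96% that fell. Lpl, the lipoprotein lipase of macrophages, adipocytes and muscle, read 47.1, 101 and 139 in p16 papillomas, against 15.4, 26.6, 9.13 and 42.1 in control papillomas, a log2 change of 2.07 ± 0.48 (SE, adjusted p = 0.0302, limma). The adipocyte markers Car3, Cfd and Adipoq rose in the same papillomas, whereas Fabp4, the other tested marker of that list, had a log2 change of -1.54 (adjusted p = 0.0764, limma). Their part in the Lpl difference was not tested. Ctsd, the lysosomal protease cathepsin D, read 1396, 1155 and 1100.3 in p16 papillomas, against 1772, 1998, 2112 and 2362 in control papillomas, a log2 change of -0.76 ± 0.15 (SE, adjusted p = 0.0142, limma). Lpl and Ctsd both separated the groups without overlap, as did 19.6% of all tested genes. The call on Lpl was lost without control papilloma 1 or 2 or p16 papilloma 2 or 3 (adjusted p 0.0506 to 0.106, limma), and that on Ctsd without p16 papilloma 2 (adjusted p = 0.0733, limma).

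Of 21 ligands and receptors that recruit or sustain macrophages, 20 were in the table and 15 were tested, with a median log2 change of -0.07. Of the 15, 0 rose and 1 fell, against 2.66% of all genes that rose and 2.96% that fell. Ccl2, the chemokine that draws monocytes from the blood, read 90.1, 63.7 and 154 in p16 papillomas, against 462, 217, 163 and 275 in control papillomas. Every p16 papilloma was below every control papilloma, p16 papilloma 3 and control papilloma 3 being the nearest pair, and the log2 change was -1.42 ± 0.35 (SE, adjusted p = 0.0382, limma). The adjusted p of Ccl2 was 0.0542 in edgeR and 0.0876 in limma-voom, and in limma the call was lost without control papilloma 1, 2 or 5 or p16 papilloma 1 or 2 (adjusted p 0.0600 to 0.147). Most of these ligands are made by keratinocytes and stromal cells as well as by leukocytes.

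The cells from which the reads of the members came were not measured. The table marks genes expressed in keratinocytes that were sorted free of CD45 cells. Of the 32 members, 14 carried that mark: Cd68, Csf1r, Tyrobp, Itgam, Laptm5, Cd14, Apoe, Lgals3, Cd74, Epcam and the H2 genes. The mark is broad, since 9984 of all 10466 tested genes carried it, and it does not show which cells gave the reads in a papilloma. The 14 tested rows with the mark had a median log2 change of 0.27 and the 11 without it -0.20, with 0 calls in either. The C1q chains, Mrc1, Lyz2, Ctss, Ptprc and the Fc receptors did not carry the mark.

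Markers of other cell types were compared in the same papillomas by counts and summed levels. Over all genes tested, 5.62% were called and 21.2% passed unadjusted. T and NK cell markers summed to 48.4, 20.3 and 35.3 in p16 papillomas, against 32.9 to 47.4 in control papillomas, with Thy1 left out. Thy1, which dermal fibroblasts also express, was the 1 tested gene of that list (17 of 27 in the table) and rose by 1.09 on the log2 scale (adjusted p = 0.0228, limma), a call lost without p16 papilloma 1 or 2 or control papilloma 5 (adjusted p 0.0586 to 0.0911). Neutrophil markers without Ltf summed to 187 to 366 in p16 papillomas and 185 to 327 in control papillomas, with 0 of 6 called and Ltf and Il1r2 the most abundant. The mast cell list had 0 of 6 called, and its sum was 157, 63.7 and 215 in p16 papillomas, against 60.1 to 121 in control papillomas, with Tpsb2 and Mcpt4 leading. Fibroblast markers summed to 3992 to 20313 in p16 papillomas and 4812 to 14057 in control papillomas, and of 10 tested 1 rose, Dcn, at 2.14 on the log2 scale (adjusted p = 0.0280, limma), a call lost without p16 papilloma 1, 2 or 3 or control papilloma 5 (adjusted p 0.0514 to 0.0860).

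Of 10 endothelial markers tested 0 were called, and their sum was 591 to 975 in p16 papillomas, against 435 to 681 in control papillomas, with Flt1 and Tie1 the most abundant. The adipocyte markers with Fabp4 summed to 1922 to 2559 in p16 papillomas, against 1837 to 11305 in control papillomas. Fabp4 alone made up most of that sum, at 1317 to 2303 in p16 papillomas and 1811 to 11250.2 in control papillomas. Without it they summed to 256, 805 and 496 in p16 papillomas, against 25.6 to 65.3 in control papillomas, and 3 of the 4 tested genes of the list rose (Car3, Cfd and Adipoq), Adipoq losing its call without p16 papilloma 1, 2 or 3 or control papilloma 2 (adjusted p 0.0521 to 0.106, limma). Skeletal muscle markers had 0 of 12 called, although 10 passed unadjusted, all higher in p16 papillomas, with Atp2a1 and Tnnt3 the most abundant. Keratinocyte markers summed to 247292 to 309353 in p16 papillomas and 294806 to 391068 in control papillomas, with Krt1 and Krt10 higher and Dsg3 lower among the 12 tested. The part that these differences in makeup play in the values of the members was not tested.

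**Figure D4:**
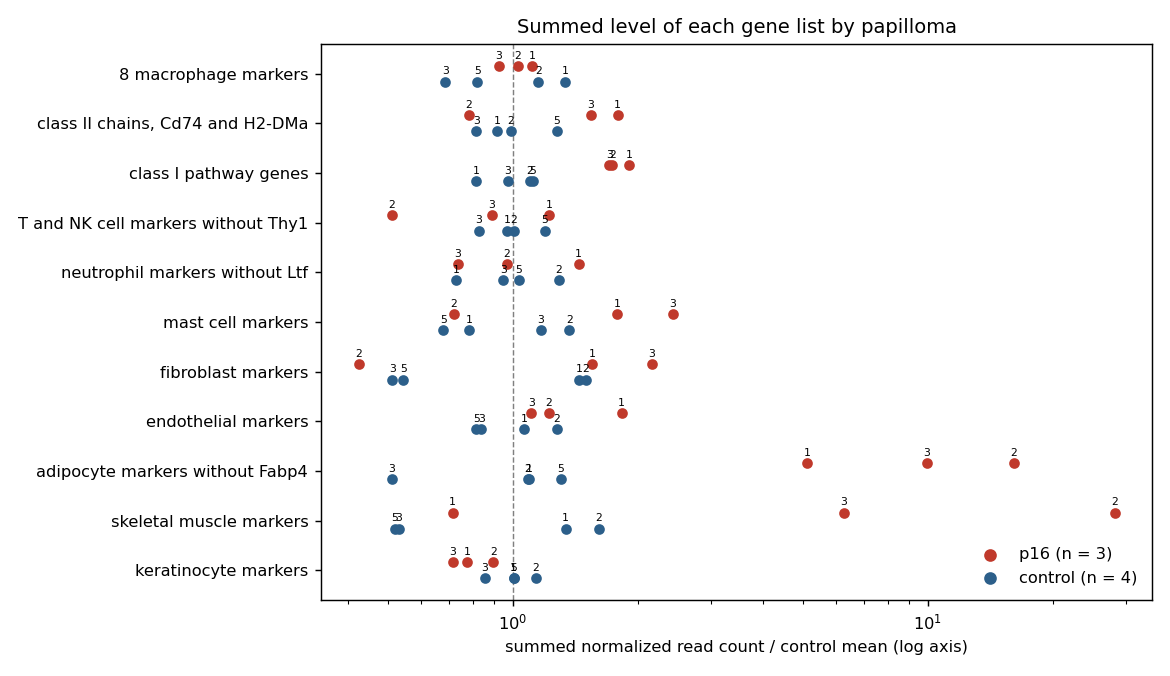
Summed normalized read count of gene lists in each papilloma, divided by the control mean (log axis, dashed line at 1), p16 in red above control in blue, numbered by papilloma. The list of further dendritic and Langerhans cell genes is not shown. The 8 macrophage markers lay within 0.69 to 1.34 of the control mean in all 7 papillomas, whereas the class I sum was 1.71 to 1.90 in p16 papillomas and the skeletal muscle sum reached 28.2 in p16 papilloma 2.

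Within the groups, no papilloma led throughout. Among the 25 tested rows, p16 papilloma 1 held the highest of the 7 values for 6 genes and p16 papilloma 2 the lowest for 8. Control papilloma 3 held both the highest value for 5 genes, among them Cd14, Itgam, Lgals3 and Epcam, and the lowest for 5. No call on a member was gained by leaving out p16 papilloma 1, 2 or 3.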

How the data were processed

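Whole papillomas were profiled by CEL-Seq2, which reads the 3′ ends of transcripts. According to the methods and the submitters' processing notes, Cutadapt trimmed the reads, TopHat2 aligned them to GRCm38 and HTSeq counted them per gene, before a DESeq2 test. The versions, the annotation release and the strand setting are not given in the sources used here. The signal values that the authors deposited are normalized read counts, reads divided by a DESeq2 size factor. Columns of the authors' own comparison (log2 fold changes, standard errors, statistics and p-values) were not used, and their mark of keratinocyte genes served as annotation.

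All values (100% at a tolerance of 0.001) were whole multiples of 1 read, so reads were recovered. Libraries held 1158035 to 4365391 reads, which were not corrected for amplification, so limits from reads cover counting error only. Titles put the samples into 3 p16 and 4 control papillomas. The main test was limma 3.58.1 (R 4.3.3) with an intensity trend on log2(value + 1), two-sided, with p-values adjusted by Benjamini and Hochberg's method and a threshold of 0.05. It covered the 10466 genes whose mean reached 10 in the p16 or the control papillomas. Fold changes on this scale understate those of low genes. On the recovered reads, edgeR 4.0.16 (quasi-likelihood, TMM) called 543 genes, DESeq2 1.42.0 called 786 and limma-voom 436. Other pseudocounts, filters and scalings, the papilloma number as a block and leaving out each papilloma were also tried, and the fit was tested on simulated data.

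The members and gene lists were chosen with earlier results of these data known. Every member is named, and of each other list up to 4 genes that passed, or the 2 most abundant where none did; Clec9a, Fabp4, Psmb9, Nlrc5 and H2-Q4 were named after their values were seen. The result of 1 marker list is not reported here. Positions are from GENCODE M21, and promoter windows from RefSeq.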

Additional observations from a re-analysis of the deposited data

Results flagged for a closer look

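Among the 25 tested members, the control papillomas held 3 genes in which 1 value was flagged as apart from the other 3. The rule sets the gap against the range, so a small gap can be flagged, and chance flags about 5% of groups of 4. C1qb was 65.8 normalized counts in control papilloma 1, against 18.8 to 43.4 in p16 papillomas and 26.5 to 30.6 in the other control papillomas. Fcer1g was 9.48 in control papilloma 5, against 8.68 to 22.8 in p16 papillomas and 20.1 to 21.7 in the other control papillomas. H2-DMa was 12.0 in control papilloma 1, against 11.6 to 16.9 in p16 papillomas and 14.5 to 14.8 in the other control papillomas. This gap is a matter of few reads, as 1 read was worth 0.854 normalized counts in control papilloma 1. Without control papilloma 1 the log2 change of C1qb was positive, at 0.11, where it was -0.19 with all papillomas.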

How the results depend on the processing

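Limma called 0 of the 19 macrophage members and 0 of the 6 antigen presentation members. The antigen presentation count was 0 in each of the 18 alternatives, and the macrophage count was 1 with DESeq2 (Apoe), 0 to 1 when a papilloma was left out (Apoe without control 5, Lgals3 without control 3) and 0 under the other scalings, pseudocounts, filters and count tests. The labels do not say what same-numbered papillomas share beyond the number. The correlations of their deviations from the group means were -0.09, -0.01 and -0.05, from too few papillomas to settle it. With that number as a replicate block, on 6 papillomas, 2 macrophage members were called (Apoe, adjusted p = 0.0350, and Cd14, adjusted p = 0.0162), against 1 (Apoe) on the same 6 without the block, a comparison chosen after seeing the data. Over all genes the calls numbered 588 (278 higher) in limma, 275 with the block, 351 on the same 6 papillomas without it, 267 to 548 without a papilloma (lowest without p16 papilloma 2) and 436 (251 higher) in limma-voom. Class I genes called higher numbered 4 with no filter and 4 with the block, against 7 in limma, and 3 to 5 without a papilloma. Of the 25 tested members, 12 kept their sign in each alternative that tested them (C1qa and Fcgr3 passed the filter in 15 of the 18). Mrc1 turned to -0.0135 with a pseudocount of 4, -0.00210 with TMM, -0.19 in edgeR, -0.18 in DESeq2 and -0.0120 in limma-voom, and Aif1 to 0.14, 0.0472, 0.87, 0.84 and 0.51. Fcgr2b (0.34) and Fcer1g (0.0706) turned in limma-voom, Epcam in edgeR (-0.0635) and DESeq2 (-0.0381), and Tyrobp (-0.16) on the 6 papillomas with or without the block. When a papilloma was left out, log2 changes ranged from -0.36 to 0.34 for Mrc1, -0.43 to 1.13 for Aif1, -0.45 to 0.13 for C1qb, -0.0479 to 0.41 for C1qc, -0.0240 to 0.11 for Cd68, -0.43 to 0.22 for Ctss, -0.10 to 0.61 for Epcam, -0.51 to 0.14 for Fcer1g, -0.81 to 0.38 for Fcgr2b, -0.0805 to 0.17 for H2-DMa, -0.0841 to 0.90 for H2-Eb1, -0.27 to 0.22 for Laptm5 and -0.28 to 0.50 for Tyrobp. The cause of these turns was not tested.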

Other observations

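Some further genes of macrophages and their ligands lay far from 0 without passing the test, and are named here after their values were seen. Plek, which encodes pleckstrin of blood-derived cells, read 2.69, 2.89 and 2.21 in p16 papillomas, against 10.2, 15.7, 15.5 and 9.48 in control papillomas (log2 change -1.91, adjusted p = 0.0594, limma). Retnla, a marker of alternatively activated macrophages that adipose tissue also expresses, read 47.1, 151 and 7.35 in p16 papillomas, against 5.12, 9.66, 2.74 and 6.32 in control papillomas (log2 change 2.60, adjusted p = 0.0831, limma). Ccl20, the chemokine that draws cells bearing Ccr6, read 18.8, 75.3 and 25.0 in p16 papillomas, against 2.56, 13.3, 4.57 and 12.6 in control papillomas (log2 change 2.11, adjusted p = 0.0685, limma). Plek and Ccl20 separated the groups without overlap, as 19.6% of all tested genes did, and Retnla did not. Plek reached the filter mean of 10 only through the control papillomas, and Retnla and Ccl20 only through the p16 papillomas. Because these genes were picked by their values, the separation is not a test.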
